A study of Mus musculus with 8 samples.

Results

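The LIM-only genes Lmo1, Lmo2, Lmo3 and Lmo4 and the LIM-binding genes Ldb1 and Ldb2 were described in the MGE of WT and Nkx2-1cKO embryos. They were chosen by gene symbol through the transcript accession that the array gives for each probe. The 6 genes were covered by 8 probes, out of 17178 genes and 24844 probes that could be named in this way. Lmo4 and Ldb1 had 2 probes each and the other 4 genes had 1. All 8 probes were well above background on all 8 arrays and entered the test, which ran over 31280 of the 41174 probes on the array.

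LMO proteins consist of little more than a pair of LIM zinc-binding domains, which hold other proteins and do not contact DNA themselves. LDB proteins form dimers and bind LIM domains, and in this way join LIM-homeodomain (LIM-HD) TFs, or a set of GATA and bHLH factors held by an LMO protein, into larger complexes. LMO proteins occupy the same surface of LDB that LIM-HD TFs need, so the supply of both kinds of protein shapes which complexes form. In the MGE the LIM-HD TFs LHX6 and LHX8 act downstream of NKX2-1, and LMO and LDB genes are known to be active in the embryonic forebrain.

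RNA came from microdissected MGE of C57BL/6 embryos at E13.5, was amplified and labelled with Cy3, and was hybridised with 1 sample per array to 1-colour Agilent arrays. The 4 WT samples are labelled Nkx2-1flox/+;Olig2tva-cre- and the 4 Nkx2-1cKO samples are labelled Nkx2-1flox/+;Olig2tva-cre+. Both groups thus have 1 floxed allele by their labels, while the study's methods name the homozygous strain Nkx2-1f/f for the mutant. The Cre is expressed from Olig2 regulatory sequence, so the deletion is limited to cells in which that sequence has been active. The sources used here do not say whether samples were single or pooled embryos, and p-values measure the spread between these samples. In bulk tissue, fewer cells that express a gene and less RNA per cell cannot be told apart.

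Nkx2-1 itself was measured first as a check of which samples are WT and which are mutant. Its mean log2 signal, relative to the 75th percentile of the array, was 1.87 ± 0.056 over the WT arrays and -4.46 ± 0.19 over the mutant ones (mean ± SD of 4 arrays, adjusted p = 4.67e-09, limma). The log2 fold change was -6.34, and the number of floxed alleles in the mutant samples was not tested. The slide barcodes in the names of the arrays place 2 WT and 2 Nkx2-1cKO samples on each of 2 slides. With group as a term, 14.2% of the tested probes differed between the slides. WT replicate 1 was raised among dim probes, by a median of 1.18 on the log2 scale in the dimmest of 5 equal brightness groups. Near the brightness of each member probe its median shift was at most 0.049 in either direction. Some other arrays shifted by more near the bright members. Near the brighter Lmo4 probe the shift was 0.15, -0.13 and 0.18 for Nkx2-1cKO replicates 1, 2 and 3, and -0.11 for WT replicate 3. Near the brighter Ldb1 probe it was 0.12, -0.093 and 0.14 for Nkx2-1cKO replicates 1, 2 and 3. The part of these shifts in the values of the members was not tested.

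Promoter sequence was found for 4 of the 6 genes among RefSeq windows of GRCm38.p6 that run from 250 bases before to 50 bases after an annotated start. Lmo2 and Ldb2 had no entry. Lmo1 and Lmo3 are shown because they are close relatives whose mean signal was lower in the Nkx2-1cKO, and because 1 of them holds the homeodomain core TAATTA, the kind of site that LIM-HD TFs bind. Each sequence is the 250 bases before the start that lies farthest upstream, on the minus strand, with TAATTA in capitals.
Lmo1, chr7:109175208-109175457: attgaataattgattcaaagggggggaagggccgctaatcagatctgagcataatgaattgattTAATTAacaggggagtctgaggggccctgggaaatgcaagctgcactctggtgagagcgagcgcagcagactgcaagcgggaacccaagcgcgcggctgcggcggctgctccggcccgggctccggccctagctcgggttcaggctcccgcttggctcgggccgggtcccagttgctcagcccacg
Lmo3, chr6:138581969-138582218: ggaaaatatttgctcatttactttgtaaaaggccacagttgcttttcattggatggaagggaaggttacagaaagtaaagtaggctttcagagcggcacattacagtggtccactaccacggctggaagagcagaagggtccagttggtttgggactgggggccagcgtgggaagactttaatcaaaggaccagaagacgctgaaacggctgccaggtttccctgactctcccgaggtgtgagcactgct
TAATTA, which reads the same on both strands, was in 1 place before Lmo1, at -186 to -181 from this start, and lay in both of its overlapping windows. No window of Lmo3, Lmo4 or Ldb1 held it. It was in 5.29% of all 32851 promoter windows. CAAGTG or its reverse CACTTG, a core of NK2 homeodomain sites, was in none of the 9 windows of these genes and in 13.6% of all windows. The GATA site AGATAA or its reverse TTATCT was in 1 of 3 Ldb1 windows, in 2 places, and in 11.2% of all windows. The motifs do not overlap one another. These matches describe the letters and were not tested for binding.

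In the comparison of WT with the Nkx2-1cKO, none of the 6 genes passed an adjusted p of 0.05 (limma, Benjamini-Hochberg over all tested probes), and neither did the second probe of Lmo4 or Ldb1. Of all tested probes, 1.04% passed, 0.422% higher and 0.614% lower. With slide as a block there were also none of the 6, against 1.52% of all probes. At an unadjusted p under 0.05 there were 2 of the 6 genes by their brightest probe, Lmo1 and Ldb2, against 8.6% of all probes. The second probe of Lmo4 was also under it (unadjusted p = 0.0113, limma). On the brightest probe of each gene, the mean was lower in the Nkx2-1cKO for Lmo1 and Lmo3 and higher for Lmo2, Lmo4, Ldb1 and Ldb2. The median log2 fold change of the 6 genes was 0.10, and that of all tested probes was -0.040. Among the probes nearest in brightness to each member's brightest probe the median was 0.058 for Lmo1, -0.0095 for Lmo2, 0.054 for Lmo3, 0.091 for Lmo4, 0.067 for Ldb1 and -0.015 for Ldb2.

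Lmo1 and Lmo3 are closely related LIM-only genes expressed in the developing nervous system, and Lmo3 is known in interneurons that arise in the MGE. On the 4 WT arrays Lmo1 had a log2 signal of 3.36, 2.88, 3.09 and 2.92, and on the 4 Nkx2-1cKO arrays 2.53, 2.64, 2.60 and 2.91. All but 1 of the Nkx2-1cKO arrays lay below every WT array, and the exception, replicate 4, lay within the WT range. The difference was -0.39 (standard error 0.12, 95% interval -0.67 to -0.11, adjusted p = 0.346, limma). The Nkx2-1cKO signal was 76.3% of WT on the linear scale. By an exact permutation test of both sides p was 0.0571, where the smallest that 4 arrays against 4 allow is 0.0286. Taken slide by slide it was -0.45 (slide 1) and -0.33 (slide 2). With slide as a block the adjusted p was 0.0748 (limma), the lowest of any alternative for Lmo1. WT replicate 1 had the highest value, and without it the difference was -0.29.

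Lmo3 had 2.46, 3.02, 2.88 and 2.83 on the WT arrays and 2.59, 2.56, 2.73 and 2.41 on the Nkx2-1cKO arrays. Here WT replicate 1 was the low one, and the other WT arrays lay above every Nkx2-1cKO array. The difference was -0.22 (standard error 0.12, 95% interval -0.50 to 0.056, adjusted p = 0.64, limma; exact permutation test, p = 0.171). It was -0.34 without WT replicate 1, -0.15 without WT replicate 2 and -0.10 after centring the arrays on their median, and did not pass the threshold in any of these. The change of Lmo1 minus that of Lmo3 was -0.17 (exact permutation test, p = 0.6, and 0.6 after adjustment over the 2 pairs of relatives compared). Without WT replicate 1 its sign turned, to 0.046, so no order of the 2 changes could be read.

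Lmo4 is the LIM-only gene with the broadest expression in the embryonic brain. Its brighter probe had 4.32, 4.03, 4.34 and 3.91 in WT and 4.37, 4.46, 4.27 and 4.44 in the Nkx2-1cKO. The groups overlapped through replicate 3 of the Nkx2-1cKO and WT replicates 1 and 3. The difference was 0.24 (standard error 0.11, 95% interval -0.0053 to 0.48, adjusted p = 0.591, limma; exact permutation test, p = 0.114). This probe also differed between the slides, by -0.24 for slide 2 minus slide 1 (adjusted p = 0.0415, limma), and within slides the group difference was 0.12 and 0.35. The WT arrays of slide 2 were the lowest of the 8.

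The other Lmo4 probe had 2.45, 2.67, 2.72 and 2.86 in WT and 2.99, 2.97, 2.98 and 2.91 in the Nkx2-1cKO. The groups did not overlap here, with the Nkx2-1cKO higher throughout, and this was the only 1 of the 8 member probes of which that was so. Of all tested probes the groups did not overlap in 6.39%, 2.29% with the Nkx2-1cKO higher. The difference was 0.29 (standard error 0.092, 95% interval 0.082 to 0.49, adjusted p = 0.346, limma; exact permutation test, p = 0.0286). Both Lmo4 probes were thus higher on average in the Nkx2-1cKO by a like amount, 0.24 and 0.29, but across the 8 arrays they varied apart, with a Pearson r of 0.22 between them. With the mean of both probes the difference was 0.26 (adjusted p = 0.176, limma).

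**Figure D1:**
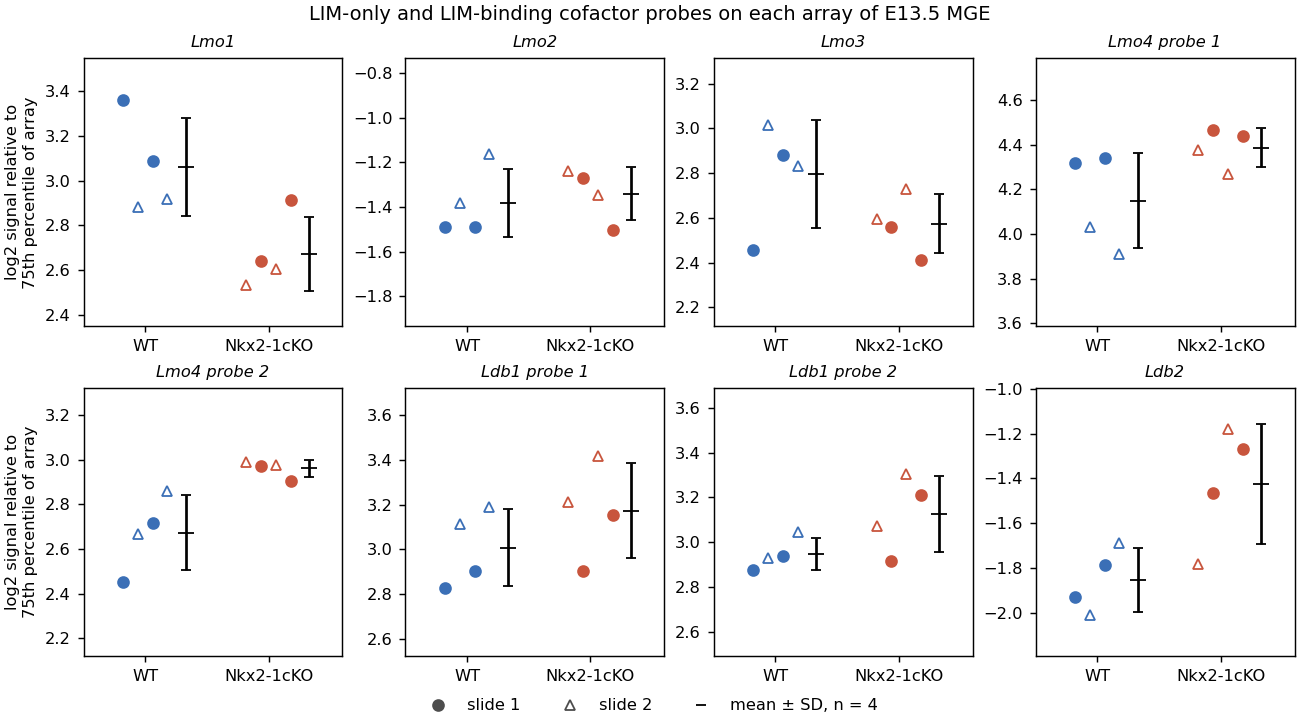
The log2 signal of each of the 8 member probes relative to the 75th percentile of the array, with WT in blue and Nkx2-1cKO in red, filled circles for slide 1 and open triangles for slide 2, replicates 1 to 4 from left to right, and bars for the mean and SD of 4 arrays. Probe 1 is the brighter probe of a gene, and each panel has its own axis range of equal span. The groups are apart in the panel of Lmo4 probe 2 only, and in the panel of Ldb1 probe 1 the arrays of slide 2 lie above those of slide 1 within each group.

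Lmo2 is best known for holding together the complex that blood and endothelial cells need to form. It had -1.49, -1.38, -1.49 and -1.16 in WT and -1.24, -1.27, -1.35 and -1.50 in the Nkx2-1cKO. The groups covered nearly the same range. The difference was 0.041 (standard error 0.11, 95% interval -0.20 to 0.29, adjusted p = 0.911, limma; exact permutation test, p = 0.657), and it was 0.10 within slide 1 and -0.021 within slide 2. Of 12 endothelial marker genes tested, none passed the threshold, their median log2 fold change was 0.0093, and their summed linear signal, in units of the array's 75th percentile, covered 11.7 to 17.3 over the WT arrays and 13.3 to 16.8 over those of the Nkx2-1cKO. None of 8 erythroid markers or 7 markers of microglia and leukocytes passed either. Their part in the Lmo2 signal was not tested.

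Ldb1 encodes the LIM-binding adaptor that most LIM-HD and LMO complexes share. Its brighter probe had 2.83, 3.11, 2.90 and 3.19 in WT and 3.21, 2.90, 3.42 and 3.16 in the Nkx2-1cKO. In each group the arrays of slide 2 were above those of slide 1, and the slides differed by 0.29 (adjusted p = 0.0376, limma). The group difference was 0.16 on either slide and 0.16 over both (standard error 0.12, 95% interval -0.11 to 0.44, adjusted p = 0.678, limma; exact permutation test, p = 0.2). It ran from 0.082 without Nkx2-1cKO replicate 3 to 0.25 without Nkx2-1cKO replicate 2.

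The other Ldb1 probe had 2.87, 2.93, 2.94 and 3.04 in WT and 3.07, 2.91, 3.30 and 3.21 in the Nkx2-1cKO. Of the Nkx2-1cKO arrays, all but replicate 2 were above every WT array. The difference was 0.18 (standard error 0.095, adjusted p = 0.632, limma; exact permutation test, p = 0.114). Here the 2 probes of the gene moved together over the 8 arrays, with a Pearson r of 0.87.

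Ldb2 encodes the second LIM-binding adaptor, which takes the same partners. It had -1.93, -2.01, -1.79 and -1.69 in WT and -1.78, -1.47, -1.18 and -1.27 in the Nkx2-1cKO. All but 1 of the Nkx2-1cKO arrays were above every WT array, the exception being replicate 1. The difference was 0.43 (standard error 0.14, 95% interval 0.11 to 0.75, adjusted p = 0.387, limma; exact permutation test, p = 0.0571), or 1.35-fold, and it was 0.49 on slide 1 and 0.37 on slide 2. Of all tested probes, 84.3% changed by less in size. The change of Ldb1 minus that of Ldb2 was -0.27 (exact permutation test, p = 0.171, and 0.343 after adjustment over the 2 pairs). With any 1 array left out, the Ldb2 difference lay between 0.35 (without Nkx2-1cKO replicate 3) and 0.55 (without Nkx2-1cKO replicate 1).

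The genes whose pattern over the 8 arrays was most like that of each member were ranked by Pearson r among 14419 genes, each by its brightest tested probe. The values are a description, since the points are only 8 arrays, which share groups and slides. Closest to Lmo1 were Tbata (0.981), Zp2 (0.975) and Zfp516 (0.969). Closest to Lmo3 were Epc1 (0.944), Chchd10 (0.929) and Aldh3b1 (0.928), and to Lmo2 Trex1 (0.985), Plekha3 (0.966) and Oxa1l (0.966). For Lmo4 they were B3galt1 (0.986), Inpp5d (0.985) and Aagab (0.982). For Ldb1 they were Cuta (0.994), Stx18 (0.993) and Fzr1 (0.993), and for Ldb2 Mafk (0.959), Eri3 (0.959) and Tlnrd1 (0.952). None of these 18 genes was itself past the threshold between WT and the Nkx2-1cKO, against 1.04% of all tested probes. They were picked for likeness to members that did not pass, so this was largely set in advance. No member was among those closest to another member, but with so few members among 14419 genes this is not read as a result.

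The LIM-HD TFs, which compete with LMO proteins for LDB, are the first group of partners. Of 12 LIM-HD genes, 10 were tested, and 3 of the 10 passed the threshold. Of these, 1 was higher and 2 were lower, against 0.422% and 0.614% of all probes. Lhx6 fell by 4.20 in log2 signal, with every WT array at 3.16 or above and every Nkx2-1cKO array at -0.69 or below (adjusted p = 5.01e-07, limma). Lhx8 fell by 3.67, with a lowest WT array at 3.63 and a highest Nkx2-1cKO array at 0.68 (adjusted p = 5.44e-06, limma). Isl1, known for its role in striatal and motor neurons, rose by 1.26, with a highest WT array at 1.03 and a lowest Nkx2-1cKO array at 2.01 (adjusted p = 0.000163, limma). The median over the 10 tested genes was -0.18, with 4 higher and 6 lower on average. The lower ones included dim probes, with WT means from -6.13 to -5.69. These turned higher after normexp background correction, at 0.59 to 0.70, so the median is not read as a fall of LIM-HD genes in general.

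Ldb1 was set against these 3 LIM-HD genes because they had passed the threshold. Relative to WT, the difference in log2 signal between Ldb1 and Lhx6 was 4.37 greater in the Nkx2-1cKO, that between Ldb1 and Lhx8 was 3.83 greater, and that between Ldb1 and Isl1 was 1.10 smaller. The RNA of Ldb1 relative to that of the partner thus shifted 20.6-fold and 14.2-fold up for Lhx6 and Lhx8, and 2.14-fold down for Isl1. Since these 3 genes were picked for their own changes, the shifts are a description, with no test. These are changes in RNA, and protein was not measured here.

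**Figure D2:**
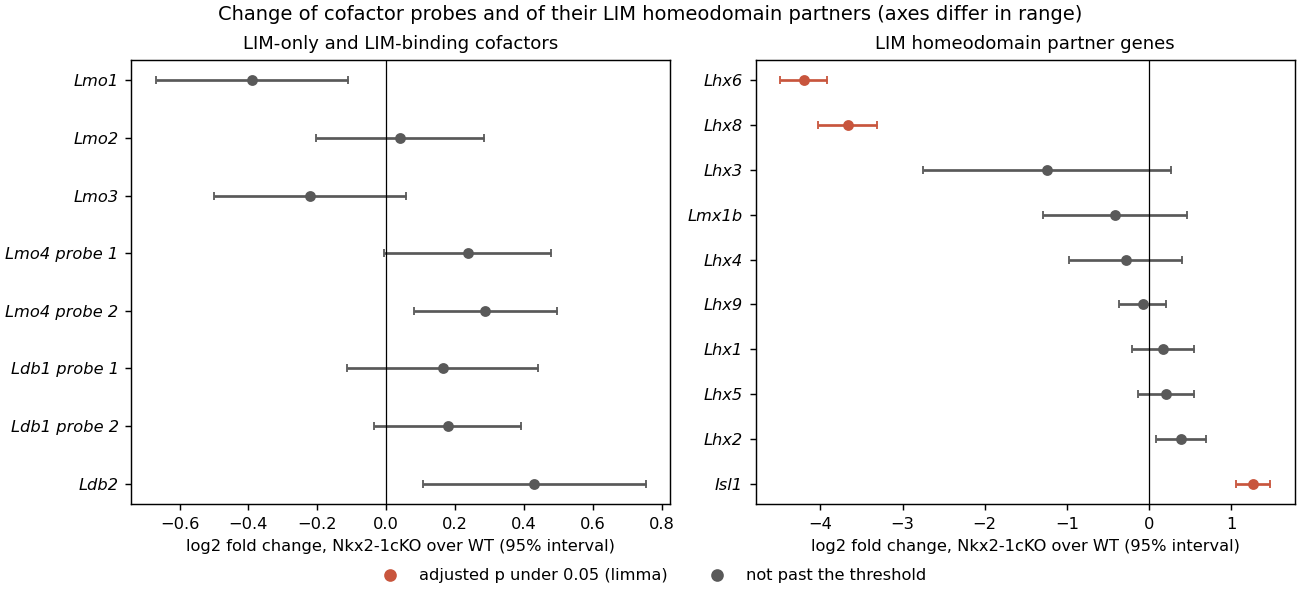
The log2 fold change of the Nkx2-1cKO over WT with its 95% interval, for the 8 member probes on the left and the 10 tested LIM-homeodomain genes on the right, in red where the adjusted p was under 0.05. The axes differ in range: the member probes lie between -0.39 and 0.43 and none is red, while Lhx6, Lhx8 and Isl1 on the right are red at -4.20, -3.67 and 1.26.

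The other known partners of LMO and LDB proteins are SSBP proteins, which protect LDB from degradation, the ubiquitin ligase RLIM, which degrades it, GATA factors and RUNX1, bHLH factors, the co-repressor CBFA2T3, and DEAF1, BRCA1 and RBBP8, which are known to bind LMO4 alone or in complexes. Of 21 genes in this list, 19 were tested. None was higher and 2 were lower past the threshold, against 0.422% and 0.614% of all probes. The median log2 fold change of the 19 was -0.013, with a range from -1.80 to 0.29. Cbfa2t3, which joins LMO2 and LDB1 in blood cells, fell by 0.67 (log2; WT mean 2.56 ± 0.10, Nkx2-1cKO mean 1.89 ± 0.17, SD of 4 arrays; adjusted p = 0.0113, limma). Its second probe fell by 0.71 (adjusted p = 0.0259, limma). The groups did not overlap on either probe, and the brighter one did not pass after centring the arrays on their median (-0.55, adjusted p = 0.121, limma).

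Tal2, a bHLH factor of the midbrain and of GABAergic neurons there, fell by 1.80 (log2; WT mean -3.29 ± 0.36, Nkx2-1cKO mean -5.09 ± 0.22, SD of 4 arrays; adjusted p = 0.0031, limma). It is a dim probe. After normexp background correction the difference was -0.52 (adjusted p = 0.849, limma).

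Of the 19 tested partners, 1 lay higher in the Nkx2-1cKO with no overlap between the groups, against 2.29% of all probes. With no overlap, 4 lay lower, against 4.11% of all probes. The 4 were Tal2, Cbfa2t3 and the E protein genes Tcf4 and Tcf12, whose products pair with other bHLH factors in LMO complexes. On their brighter probes Tcf4 and Tcf12 did not pass the threshold, with -0.56 and -0.66 (adjusted p = 0.22 and 0.086, limma). On their second probes they fell by 0.82 and 0.63 (adjusted p = 0.00478 and 0.0277, limma). The second Tcf4 probe had -0.40 after normexp (adjusted p = 0.849, limma), and the second Tcf12 probe had -0.51 after median centring (adjusted p = 0.348, limma). The second Tcf4 probe passed after median centring (-0.70, adjusted p = 0.0461, limma), and the second Tcf12 probe after normexp (-0.62, adjusted p = 0.0111, limma). On the brighter probe or the mean of probes, Tcf4 passed in 1 of 21 alternatives and did not in 20. Tcf12 passed in 3 and did not in 18. Both passed with the mean of probes (adjusted p = 0.0136 and 0.0206, limma). The 1 higher gene was Ssbp3, whose difference of 0.22 in log2 signal did not pass the threshold (adjusted p = 0.416, limma). On its other probe the groups overlapped, with a difference of 0.13 (adjusted p = 0.687, limma). These last 3 genes were named after their values were seen.

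Other small proteins made of LIM domains, of the Fhl, Csrp and Crip families, which are not known to work through LDB, served as a further comparison. All 10 were tested, none passed the threshold, and their log2 fold changes ran from -0.27 to 0.15 with a median of -0.069. The range of the members was wider, from -0.39 to 0.43, but this difference was not tested.

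Some cell type markers differed between the groups, and their lists share Lhx6, Lhx8 and Isl1 with the LIM-HD genes above. Of 16 tested marker genes of MGE-derived neurons, 14 passed the threshold and all of these were lower, against 0.614% of all probes. Of 14 tested markers of the LGE and CGE, 6 passed and all of these were higher, against 0.422%. The lists were chosen with earlier results of these data known, so these counts are a description. None of 9 neuronal genes, 10 genes of dividing progenitors or 10 pallial genes passed the threshold. The 7 tested markers of mesenchyme had a median of -0.47 with none past the threshold, and their summed linear signal reached 8.03 on the array of WT replicate 4 and lay between 1.65 and 2.31 on the rest. The part of these markers in the values of the members was not tested.

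**Figure D3:**
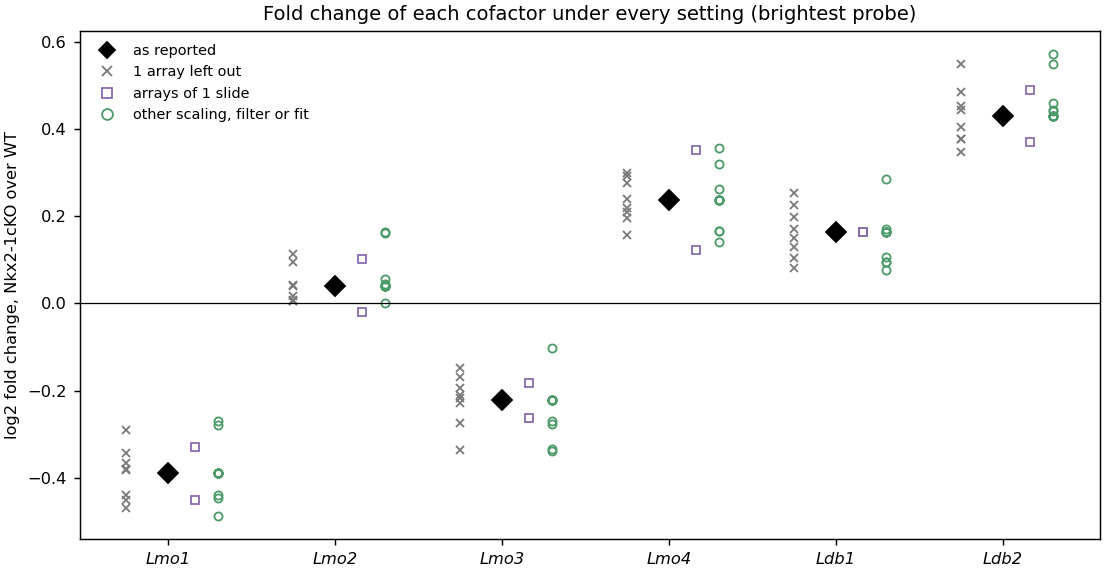
The log2 fold change of each member's brightest probe as reported (diamond) and under 21 alternatives, with crosses for 1 array left out, squares for the arrays of 1 slide and circles for another scaling, filter or fit. Lmo1 and Lmo3 stayed below 0 and Lmo4, Ldb1 and Ldb2 above it in every alternative shown, while Lmo2 lay between -0.021 and 0.16. Circles for another filter, no variance trend or a block cannot differ from the diamond, nor can the mean of probes for a gene with 1 probe.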

How the data were processed

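Transcript levels in E13.5 MGE of 4 WT and 4 Nkx2-1cKO samples were measured on 1-colour Agilent arrays. The authors deposited the output of Agilent Feature Extraction (10.7.3.1 per the file headers, 10.1 per the submitters' processing notes), which gives spot intensities after background subtraction, with no scaling between arrays. Flags of another kind in the deposited files mark spots that are well above background, saturated (none here) or outliers. The later processing by the authors is not given in the sources used here. ChIP-seq data were not analysed here.

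Control and outlier spots were left out, spots of a probe were averaged, and each array's 75th percentile was subtracted from its log2 intensities, so that a fold change is relative to that percentile. These percentiles lay between 2026.2 and 2572.9, and the probes well above background per array numbered 29271 to 32733 of 41174. The number of arrays limits the precision. Probes above background on at least 4 of 8 arrays were tested with lmFit and eBayes with a variance trend (limma 3.58.1, R 4.3.3), 49 of them with a missing value on an array, and adjusted by Benjamini-Hochberg over all 31280 with a threshold of 0.05. Single values were compared by exact two-sided permutation tests. The brightest tested probe represents a gene. No genome coordinates of probes were used, since the array design and the RefSeq table differ in build.

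The genes named are all members, each partner past the threshold, Nkx2-1, and the 3 genes most like each member. Tcf4, Tcf12 and Ssbp3 were added after their values were seen. The members and lists were chosen with earlier results of these data known. The 21 alternatives were other scalings (quantile, median, cyclic loess), normexp (median signal, offset 50), other filters, no variance trend, array weights, the mean of probes, slide or replicate number as a block, each slide alone and each array left out. Cyclic loess was chosen after seeing the data.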

Additional observations from a re-analysis of the deposited data

How the results depend on the processing

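No member passed the threshold in any of the 21 alternatives (limma). Other filters, no variance trend and slide or replicate number as a block cannot change a member's log2 fold change here. The mean of probes cannot either for a gene with 1 probe. In the rest, the members' log2 fold changes kept their sign, except that of Lmo2, which was -0.021 within slide 2. Across all alternatives they ran from -0.49 to -0.27 for Lmo1 (adjusted p from 0.0748 to 0.799), from -0.34 to -0.10 for Lmo3, from 0.12 to 0.36 for Lmo4, from 0.076 to 0.28 for Ldb1 and from 0.35 to 0.57 for Ldb2. The change of Lmo1 minus that of Lmo3 ran from -0.30 to 0.046 with 1 array left out, with the positive value without WT replicate 1. Lhx6, Lhx8 and Isl1 passed in every alternative. The number of LDB complex partners past the threshold, 2 as reported, was 4 with the mean of probes, 1 with median centring and 0 within slide 1 or slide 2. The number of all probes past it, 324 as reported, was 209 with median centring, 155 with normexp, 33 within slide 1 and 87 within slide 2, and ran from 209 to 294 with 1 array left out, the lowest without Nkx2-1cKO replicate 4. The median log2 fold change of all probes was 0.014 with quantile scaling, 0.079 with median centring and 0.20 with normexp. With normexp, Lmo2 (0.16), Lmo4 (0.14) and Ldb1 (0.076) lay below that median, though above 0. Shifts between arrays differed with brightness, so the median of all probes is only a rough baseline for the members. The cause of these differences in the median was not tested.

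Deviations from the group means of arrays that share a replicate number had correlations of -0.205, -0.294, -0.194 and -0.481 over all tested probes, and the numbers were not taken as a pairing. With replicate number as a block, 73 probes and 1 LDB complex partner passed, and Cbfa2t3 kept its difference of -0.67 with an adjusted p of 0.182 (limma). The mean of probes was not run for the count over all probes. Among 28 groups of 4 arrays examined, none held an array flagged as far from the others, where chance gives about 1.4. This does not hold for every value given here. The summed mesenchyme signal was 8.03 for WT replicate 4, against 1.81, 1.65 and 2.26 for WT replicates 1, 2 and 3. In the dimmest brightness group the median shift was 1.18 for WT replicate 1. It was -0.058, 0.050 and 0.093 for WT replicates 2, 3 and 4.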
